A study of Mus musculus with 34 samples.

Results

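The 41 genes described here carry out fatty acid oxidation in liver or are known targets of the nuclear receptor PPAR-alpha, and they were taken from the 55487 genes of 2 expression tables by gene symbol. The rule itself uses symbols and no measured value, but the list was drawn up with earlier results of these data known. By role, 4 act in fatty acid uptake and activation, 17 in mitochondrial oxidation, 9 in peroxisomal oxidation and 3 in omega oxidation, 5 are acyl-CoA thioesterases, and 3 are the receptor gene Ppara itself, the fuel switch kinase gene Pdk4 and the ketone enzyme gene Bdh1. All 41 were found in both tables and all passed the filter on low values in both.

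PPAR-alpha is a receptor for fatty acids and their derivatives that binds DNA together with the retinoid X receptor, and in hepatocytes it raises the capacity to burn fat during fasting. Fatty acids are bound by fatty acid binding protein and activated to acyl-CoA, which enters mitochondria through the carnitine shuttle and is then shortened cycle by cycle to acetyl-CoA. Peroxisomes shorten very long, branched and dicarboxylic acids, and Cyp4a enzymes of the endoplasmic reticulum oxidize the omega end, which makes dicarboxylic acids. Thioesterases release free fatty acids from acyl-CoA.

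The study sequenced polyadenylated RNA from livers of male mice at 3 months of age in 34 libraries of 6 groups, each animal given its agent or vehicle by intraperitoneal injection. The first table held PiZ mice that also lack both copies of the p50 gene (PiZ p50KO, PBS, 5 libraries), PiZ mice with intact p50 (PiZ, PBS, 5 libraries), wild-type mice examined 2 hours after TNFa (WT TNFa, 6 libraries) and wild-type mice given PBS (WT PBS, 6 libraries). The second table, from another batch per the labels, held wild-type mice examined 24 hours after tunicamycin (WT tunicamycin, 6 libraries) and wild-type mice given DMSO (WT DMSO, 6 libraries). PiZ mice carry the Z form of human alpha-1 antitrypsin, which polymerizes in the endoplasmic reticulum of hepatocytes, and p50 is the NF-kB subunit encoded by Nfkb1. TNFa is an inflammatory cytokine, and tunicamycin blocks N-linked glycosylation and so burdens protein folding in the endoplasmic reticulum. The labels name no promoter for the PiZ transgene, no deleted exon of Nfkb1, no strain and no dose.

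Depth ran from 35500000 to 54000000 reads per library in the first table (to 3 digits) and from 34300000 to 47800000 in the second, except for WT PBS 2 with 10200000. The composition of WT PBS 2 also differed, with protein-coding genes holding 72.2% of reads (at least 97.3% elsewhere in that table) and the albumin gene Alb at 12.22 log2 CPM (at least 15.43 elsewhere). Of the 41 genes, 34 were lower in WT PBS 2 than in every other WT PBS library, 4 were higher and 3 lay within their range. WT PBS 2 was left out of the fits reported here for its depth and composition, and because the plan of this report states it apart. That choice was made with earlier results of these data known. The counts of called members are given with it too. Nfkb1 transcripts were present in every PiZ p50KO library, at 4.51, 4.86, 3.31, 3.74 and 3.37 log2 CPM, against 4.62 to 5.58 in PiZ and 3.92 to 4.34 in WT PBS without WT PBS 2. The labelled knockout thus could not be checked from this gene, and PiZ p50KO 1 and 2, the highest of the 5, were left out of a further fit.

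Values are log2 CPM, reads of a gene scaled to the same library total, so a step of 1 is a doubling, and n is the number of libraries. A gene was called when limma gave a two-sided Benjamini-Hochberg adjusted p under 0.05 over all genes of its table. Among the members Fabp1 was the most abundant per length in WT PBS, at a mean of 12.75 log2 CPM per kilobase of exon, followed by Acaa2 at 8.99, Acaa1b at 8.70 and Slc27a2 at 8.36. Pdk4 at 0.71 and Acot3 at 0.72 were the lowest on the same scale.

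Of the 41 members, 4 were called in at least 3 of the 5 comparisons (Fabp1, Acsl1, Acot1 and Acot2), and promoters of 3 of these are shown, since Fabp1 moved most often and Acot1 and Acot2, which lie 15.6 kb apart, moved in opposite directions. Sequences are from RefSeq (GRCm38.p6), run 5′ to 3′ on the plus strand, which is the strand of each gene, and span 250 bases before to 50 bases after the start. They lie at chr6:71199629-71199928 for Fabp1, chr12:84009252-84009551 for Acot1 and chr12:83987611-83987910 for Acot2. Capitals in Fabp1 mark TGACCTATGGCCT, a direct repeat read on the minus strand, and the further single unit TGACCT; the others hold none of the motifs searched.
Fabp1: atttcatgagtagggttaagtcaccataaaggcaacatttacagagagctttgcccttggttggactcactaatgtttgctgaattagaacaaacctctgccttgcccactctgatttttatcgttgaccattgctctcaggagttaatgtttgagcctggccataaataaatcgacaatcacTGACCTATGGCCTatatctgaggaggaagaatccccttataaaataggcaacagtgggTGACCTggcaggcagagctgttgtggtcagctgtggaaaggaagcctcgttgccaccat
Acot1: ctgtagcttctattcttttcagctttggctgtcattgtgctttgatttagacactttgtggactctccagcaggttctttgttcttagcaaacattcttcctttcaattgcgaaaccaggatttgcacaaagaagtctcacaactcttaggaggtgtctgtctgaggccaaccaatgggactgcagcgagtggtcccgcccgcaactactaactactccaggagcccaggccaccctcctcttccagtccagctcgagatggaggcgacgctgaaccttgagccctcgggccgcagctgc
Acot2: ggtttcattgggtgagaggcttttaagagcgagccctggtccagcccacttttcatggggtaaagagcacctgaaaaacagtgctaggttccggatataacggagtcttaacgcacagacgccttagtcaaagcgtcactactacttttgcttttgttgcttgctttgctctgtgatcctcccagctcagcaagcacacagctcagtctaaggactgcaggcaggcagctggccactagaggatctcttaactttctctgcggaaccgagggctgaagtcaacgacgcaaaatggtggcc

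The direct repeat searched was a pair of AGGNCA units with 1 base between them, on both strands, the form to which PPAR-alpha with its partner is known to bind, and it was found in 0.381% of 32851 mouse promoters of the same length. A promoter was found for 34 of the 41 members, 38 promoters in all, and 1 of the 38, that of Fabp1, held the repeat, at bases -67 to -55 from the start. Its single unit AGGTCA, which overlaps the repeat, was in 9 of the 38, among them Cpt1a, Acadm, Acadvl and Slc27a2, and in 16.3% of all promoters. The ER stress response element, CCAAT and CCACG with 9 bases between them, was in 0 of the 38 and in 0.119% of all, and the amino acid response element TGATGNAAN in 0 and in 3.95%. Matches are descriptions of letters, and these windows leave out distal sites.

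PiZ livers had lower levels of fatty acid uptake and activation genes and of several mitochondrial and peroxisomal genes than WT PBS livers. Of the 41 members, 17 fell and 3 rose, against 6.19% lower and 45.6% higher among all 13285 genes tested. Without WT PBS 2, 15 members lay below all WT PBS libraries and 1 above, against 4.36% and 31.4% of all genes. The median log2 fold change was -0.31 over the members and 0.40 over all genes. After the libraries were shifted to the same median, 37 members fell and 1 rose (all genes 22.5% and 17.4%), with medians of -0.80 and -0.09. With WT PBS 2 in the fit 3 fell, Acot1, Acot3 and Cyp4a10 (all genes 2.22% lower and 15.1% higher). WT PBS 2 was at 6.89 log2 CPM for Fabp1, 7.42 for Acsl1 and 6.07 for Acaa1b, and with it their differences were -0.37 ± 0.65, -0.66 ± 0.39 and -0.74 ± 0.54 (adjusted p = 0.791, 0.287 and 0.407). In that fit 0 members of the mitochondrial and peroxisomal roles passed, and 16 of the 41 members had a difference of the opposite sign, among them Acsl5 at 0.45 and Etfa at 0.26. Without WT PBS 2, the members together took 0.903 ± 0.0589% of reads in PiZ and 1.37 ± 0.0715% in WT PBS (SD, n = 5 each). In each of the PiZ libraries the share was below that of each WT PBS library other than WT PBS 2.

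**Figure D1:**
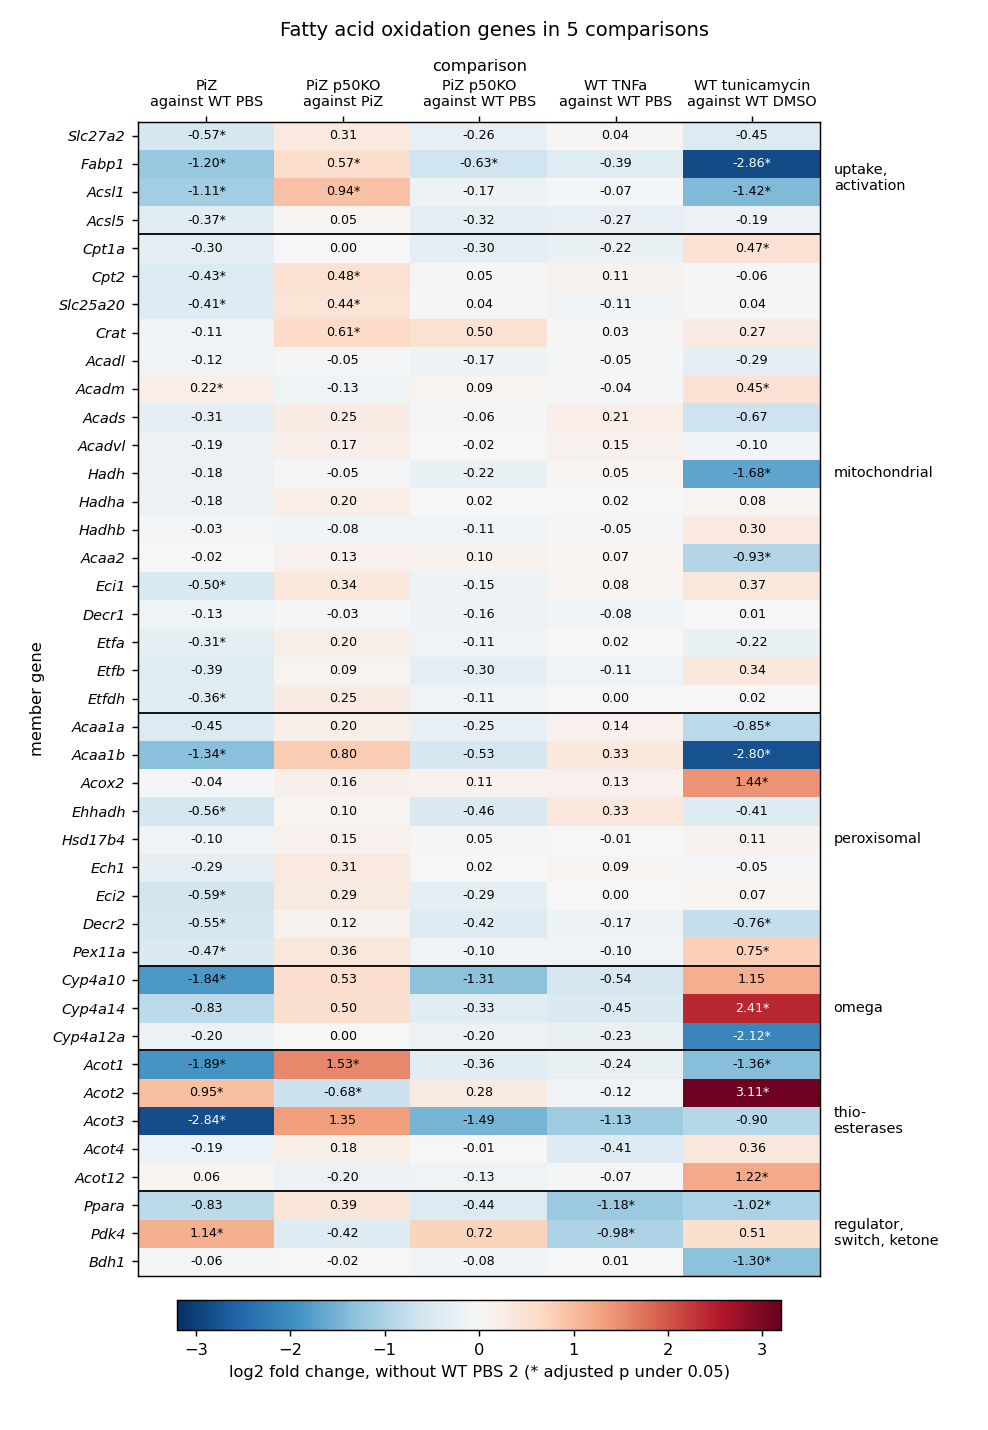
Log2 fold change of each of the 41 members (down the page, by role) in 5 comparisons (across), from the fit without WT PBS 2; blue is lower and red higher in the group named first, and an asterisk marks an adjusted p under 0.05. In the PiZ column all 4 uptake and activation genes are blue with an asterisk, and Fabp1 has asterisks in 4 columns.

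Uptake and activation was the role with every member called: 4 of 4 fell in PiZ. Fabp1, the liver fatty acid binding protein (chr6:71199827-71205023), was at 10.76, 10.66, 10.86, 10.68 and 10.48 log2 CPM in PiZ libraries, against 11.64, 11.85, 11.97, 11.82 and 12.17 in WT PBS, a log2 fold change of -1.20 ± 0.16 (SE, adjusted p = 3.34e-06). Acsl1, an acyl-CoA synthetase that activates long-chain fatty acids, was at 8.84, 8.92, 9.16, 9.03 and 9.08 in PiZ and 10.32, 9.81, 10.14, 10.09 and 10.23 in WT PBS (-1.11 ± 0.19, adjusted p = 7.09e-05). For both genes every PiZ library lay below every WT PBS library other than WT PBS 2, which was at 6.89 and 7.42. Slc27a2, a transporter and very long-chain acyl-CoA synthetase, was at 9.84, 9.77, 9.83, 9.25 and 9.78 in PiZ and 10.15, 10.64, 10.03, 10.31 and 10.20 in WT PBS (-0.57 ± 0.18, adjusted p = 0.0130). Acsl5, another acyl-CoA synthetase, fell by 0.37 with overlapping groups (adjusted p = 0.0441).

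In mitochondrial oxidation 5 of 17 fell and 1 rose, and the changes were smaller, from -0.50 to 0.22. Cpt2, the inner membrane carnitine palmitoyltransferase, was at 6.53, 6.62, 6.58, 6.11 and 6.54 in PiZ and 7.02, 6.80, 6.72, 6.94 and 7.03 in WT PBS (-0.43 ± 0.14, adjusted p = 0.0134). Slc25a20, the carnitine-acylcarnitine carrier between the 2 transferases, was at 6.09, 6.09, 5.98, 5.94 and 6.20 in PiZ and 6.48, 6.41, 6.50, 6.42 and 6.51 in WT PBS (-0.41 ± 0.082, adjusted p = 0.000365). Eci1, an enoyl-CoA isomerase needed for unsaturated fatty acids, was at 6.16, 6.16, 6.19, 5.61 and 6.29 in PiZ and 6.52, 6.38, 6.39, 6.85 and 6.77 in WT PBS (-0.50 ± 0.15, adjusted p = 0.0100). None of these 3 overlapped between PiZ and WT PBS without WT PBS 2, which lay below every PiZ library for all 3. The electron transfer genes Etfa and Etfdh, which pass electrons of acyl-CoA dehydrogenases to the respiratory chain, fell by 0.31 and 0.36. Acadm, the medium-chain acyl-CoA dehydrogenase, was called higher at 0.22 ± 0.080 (adjusted p = 0.0244), but its change was -0.27 at the same median (adjusted p = 0.0760). Cpt1a, the regulated entry step, did not pass the test at -0.30, nor did the other dehydrogenase genes, at -0.12 for Acadl, -0.31 for Acads and -0.19 for Acadvl. Of the 17, all but Acadm fell at the same median.

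In peroxisomal oxidation 5 of 9 fell and 0 rose by limma, with 0 higher at an unadjusted p under 0.05. Voom on recovered reads called 0 higher and 9 of 9 lower. No share of all genes was taken for voom, so its counts here and below cannot be set against one. Acaa1b, a peroxisomal thiolase, was at 8.45, 8.61, 8.50, 7.52 and 8.60 in PiZ and 10.18, 9.10, 9.22, 10.13 and 9.76 in WT PBS (-1.34 ± 0.32, adjusted p = 0.00160). Eci2, an enoyl-CoA isomerase, was at 5.92, 5.90, 5.82, 5.59 and 5.80 in PiZ and 6.29, 6.86, 6.33, 6.21 and 6.29 in WT PBS (-0.59 ± 0.12, adjusted p = 0.000505). Ehhadh, the bifunctional hydratase and dehydrogenase, was at 8.29, 8.28, 8.22, 8.01 and 8.23 in PiZ and 8.86, 8.42, 8.68, 8.96 and 8.91 in WT PBS (-0.56 ± 0.18, adjusted p = 0.0152). All 3 were lower in every PiZ library than in any WT PBS library other than WT PBS 2. That library was at 6.07, 4.65 and 5.77, below every PiZ library. Decr2, a dienoyl-CoA reductase, and Pex11a, which acts in peroxisome division, fell by 0.55 and 0.47. Hsd17b4, Acox2, Ech1 and Acaa1a did not pass, at -0.10, -0.04, -0.29 and -0.45, but with the libraries at the same median all 4 fell, by 0.59, 0.53, 0.78 and 0.94. Of the annotated sequence of Acaa1b, 30.5% of 50-base stretches also occur in Acaa1a, so their reads may be shared.

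The 3 members with the largest falls were the omega hydroxylase gene Cyp4a10 and the thioesterase genes Acot3 and Acot1. Cyp4a10, an omega hydroxylase widely used as a PPAR-alpha target, was at 4.31, 3.98, 4.13, 6.13 and 4.51 in PiZ and 5.15, 5.18, 7.25, 7.85 and 6.81 in WT PBS (-1.84 ± 0.72, adjusted p = 0.0373). PiZ 4 lay within the WT PBS range, and without any 1 of 7 libraries the adjusted p was 0.0617 to 0.106. Acot3, a peroxisomal thioesterase, was at -0.75, -0.22, -1.11, 0.64 and -0.28 in PiZ and 2.97, 4.10, 2.91, 1.83 and 0.68 in WT PBS (-2.84 ± 0.67, adjusted p = 0.00148). Acot1, the cytosolic thioesterase, was at 3.15, 3.18, 2.92, 2.81 and 3.74 in PiZ and 5.22, 5.02, 4.75, 5.25 and 5.01 in WT PBS (-1.89 ± 0.26, adjusted p = 7.14e-06). Neither thioesterase overlapped between the groups. Acot2, the mitochondrial thioesterase next to Acot1 on chromosome 12, moved the other way, at 3.18, 3.55, 3.99, 3.72 and 3.63 in PiZ and 2.74, 2.12, 2.97, 2.53 and 2.94 in WT PBS (0.95 ± 0.19, adjusted p = 0.000275). Its difference at the same median was 0.47 with an adjusted p of 0.0658, and with WT PBS 2 it was 0.58 ± 0.33 (adjusted p = 0.269). Acot1 shares 13.6% of its 50-base stretches with Acot2, and Acot2 24.5% of its with Acot1, so part of their reads cannot be assigned with certainty. Cyp4a10 shares 24.5% of its stretches with Cyp4a32 in the same way.

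**Figure D2:**
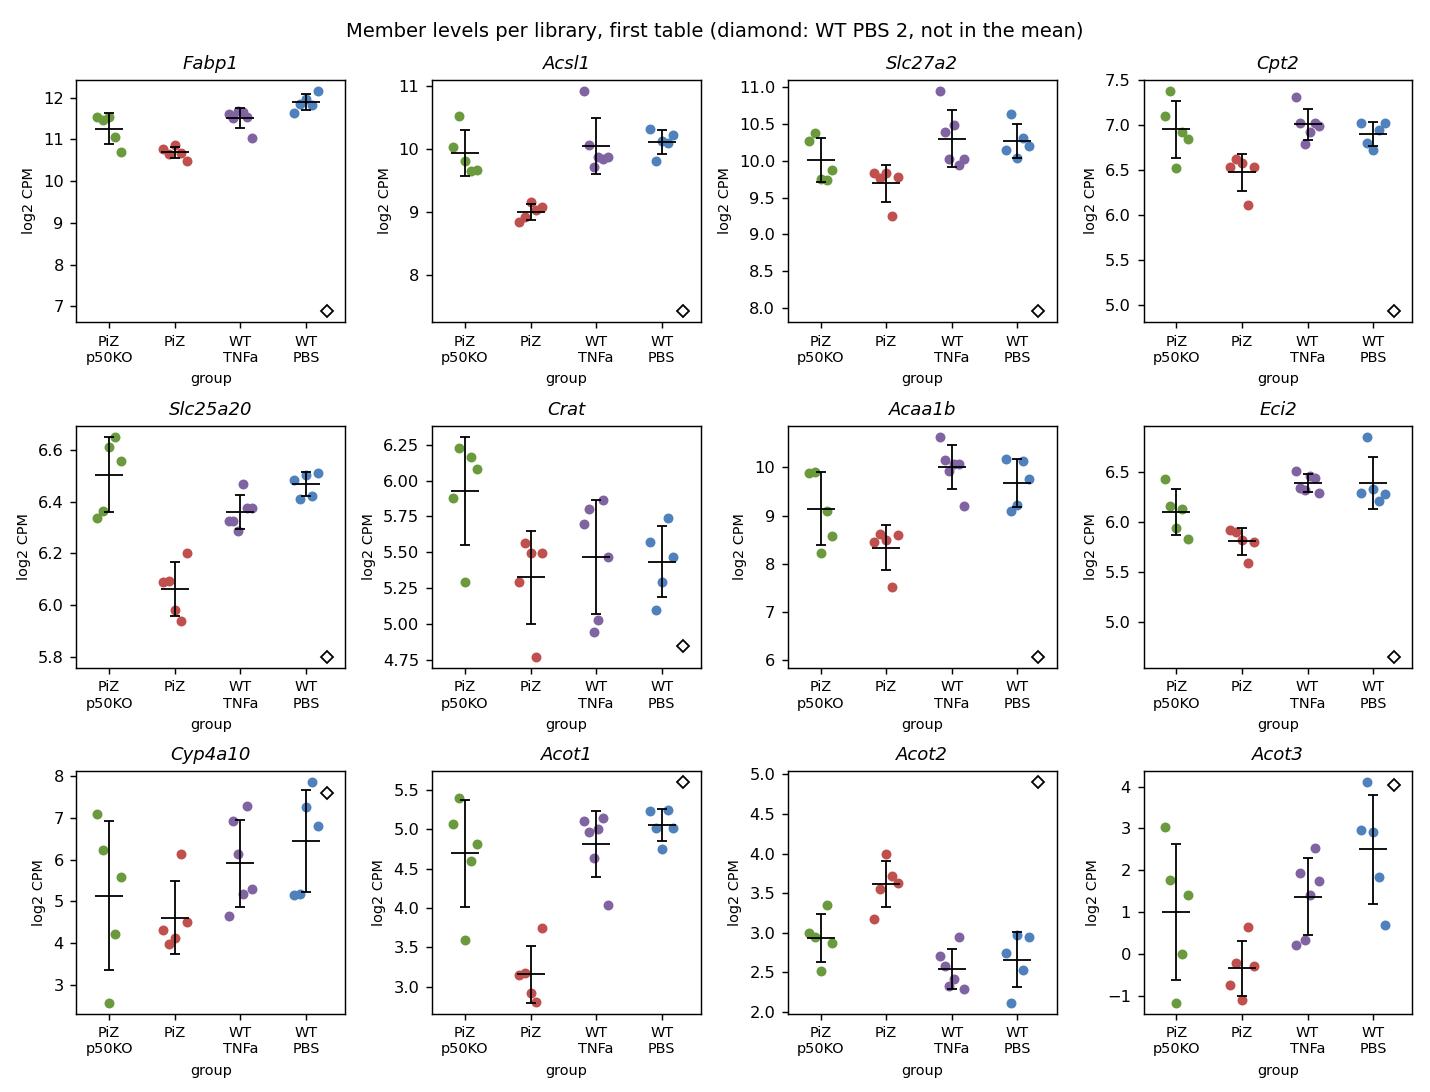
Log2 CPM of 12 members in each library of the first table, by group; bars are the mean and SD without WT PBS 2, which is drawn as an open diamond. All PiZ points lie below all WT PBS points other than the diamond for Fabp1, Acsl1, Slc27a2, Cpt2, Slc25a20, Acaa1b, Eci2, Acot1 and Acot3, and above them for Acot2.

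Pdk4 rose while the receptor gene did not pass the test. Pdk4, the kinase that shuts pyruvate dehydrogenase and so spares glucose (chr6:5483351-5496309), was at 4.17, 3.49, 3.77, 3.34 and 3.55 in PiZ and 3.40, 1.76, 2.76, 2.60 and 2.09 in WT PBS (1.14 ± 0.24, adjusted p = 0.000516, and 0.65 with adjusted p = 0.0381 at the same median). Ppara (chr15:85734983-85802819, GRCm38) was at 5.51, 5.77, 5.39, 4.83 and 5.53 in PiZ and 6.48, 6.91, 5.76, 6.23 and 5.79 in WT PBS, a difference of -0.83 ± 0.35 (adjusted p = 0.0502). Without WT PBS 2 the groups touched only through PiZ 2, which lay just above the lowest remaining WT PBS library. WT PBS 2 was at 5.27, below all PiZ libraries but PiZ 4. At the same median the fall of Ppara was 1.32 (adjusted p = 0.00193), and without any 1 of 3 libraries its adjusted p was 0.0401 to 0.0496. Bdh1, which reduces acetoacetate to beta-hydroxybutyrate, differed by -0.06, by -0.55 at the same median, where it was called (adjusted p = 0.000426), and by 0.32 with WT PBS 2. With WT PBS 2, which was at 4.46 log2 CPM for Pdk4, above every PiZ library, the difference of Pdk4 was 0.82 ± 0.34 (adjusted p = 0.105).

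Markers of other cells moved in the same comparison. Their summed levels in WT PBS are given without WT PBS 2. Of 10 macrophage markers 9 rose in PiZ, with summed levels of 615 to 923 CPM in PiZ and 201 to 246 CPM in WT PBS. All 10 stellate cell and matrix markers rose (9 at the same median), with sums of 707 to 1120 CPM in PiZ and 156 to 206 CPM in WT PBS. Of 9 hepatocyte markers 3 fell (7 at the same median), and their sums overlapped, at 75927 to 104556 CPM in PiZ and 93181 to 121907 CPM in WT PBS. Of the cholangiocyte markers 4 of 6 rose (3 at the same median, 1 with WT PBS 2) and of the endothelial ones 5 of 6 (1 at the same median, 4 with WT PBS 2). Of the matrix markers 8 rose with WT PBS 2, and no hepatocyte marker passed. T and NK lymphocyte markers summed to 2.2 to 3.1 CPM in PiZ and 0.4 to 0.9 CPM in WT PBS, and adipocyte markers to 0.9 CPM at most in PiZ. None of these markers was at 0 in every library of a group except the adipocyte genes Lep and Ucp1 in PiZ and Ucp1 in WT PBS. In bulk liver, fewer hepatocytes and less RNA of these genes per hepatocyte cannot be told apart, and the part of other cells in the falls was not tested.

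Genes with related roles gave a mixed picture in PiZ. Of 25 other PPAR-alpha target genes 8 fell and 2 rose, and 18 and 2 did at the same median. Vnn1, which encodes the pantetheinase vanin, was at 0.81 to 1.52 log2 CPM in PiZ and 4.66 to 5.67 in WT PBS (-3.91 ± 0.33, adjusted p = 2.01e-08), and it also fell with WT PBS 2 in the fit (adjusted p = 1.74e-06). Ucp2, a mitochondrial carrier gene, rose by 2.07 and the fatty acid translocase gene Cd36 by 1.59. Macrophages are known to express both, and the part of any cell type in these rises was not tested. Of the other targets 1 fell and 2 rose with WT PBS 2 in the fit. Of 18 partners and coregulators 7 rose, whereas at the same median 4 fell and with WT PBS 2 none passed. Both counts were near the shares of all genes, 45.6% higher and, at the same median, 22.5% lower. Of 16 peroxisome biogenesis genes and catalase 2 rose and 2 fell, whereas at the same median 9 fell, and Abcd3, the peroxisomal membrane transporter of acyl-CoA, fell by 0.57 (adjusted p = 5.39e-05, and 0.874 with WT PBS 2).

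Loss of p50 in PiZ livers went with higher levels of a few uptake, mitochondrial and thioesterase genes. Of the 41 members 6 rose and 1 fell in PiZ p50KO against PiZ, beside 3.36% higher and 21.6% lower among all genes, and 2 rose without overlap (all genes 1.64%). The median was 0.20 over the members and -0.22 over all genes. With the libraries at the same median 19 rose and none fell (all genes 9.84% and 9.11%), with medians of 0.46 and 0.04. With WT PBS 2 in the fit only Acot1 was called, as higher (all genes 0.512% higher and 2.96% lower). WT PBS 2 belongs to neither group, so the differences were the same, while standard errors from the shared fit widened. That of Acsl1 went from 0.19 to 0.41, that of Fabp1 from 0.16 to 0.68 and that of Acot1 from 0.26 to 0.28. Without PiZ p50KO 1 and 2 those that rose were Acot1, Acsl1 and Slc25a20, and no share of all genes was taken for that fit. The PiZ libraries are those of the comparison with WT PBS, so the values of both comparisons are given side by side and are not independent.

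Acsl1 was at 10.03, 10.53, 9.81, 9.65 and 9.67 in PiZ p50KO, above every PiZ value (0.94 ± 0.19, adjusted p = 0.00148), while its difference from WT PBS was -0.17 ± 0.19. Fabp1 was at 11.54, 11.46, 11.53, 11.07 and 10.69 in PiZ p50KO (0.57 ± 0.16 against PiZ, adjusted p = 0.0115), and PiZ p50KO 5 lay within the PiZ range. It was below every WT PBS library other than WT PBS 2, at -0.63 ± 0.16 (adjusted p = 0.0156). Of the carnitine shuttle, Slc25a20 was at 6.34, 6.36, 6.61, 6.65 and 6.55, above every PiZ value (0.44 ± 0.082, adjusted p = 0.000647). Cpt2 was at 7.10, 7.38, 6.52, 6.92 and 6.84 (0.48 ± 0.14, adjusted p = 0.0153), and its adjusted p was 0.0511 without PiZ p50KO 2. Crat, carnitine acetyltransferase, was at 5.88, 6.22, 5.30, 6.16 and 6.08 in PiZ p50KO and 5.30, 5.57, 5.50, 4.77 and 5.49 in PiZ (0.61 ± 0.21, adjusted p = 0.0360). Crat passed narrowly: without any 1 of 7 libraries its adjusted p was above the threshold, at up to 0.0912, and it had not changed by the test in PiZ against WT PBS (-0.11).

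Of the thioesterases, Acot1 was at 5.07, 5.39, 3.59, 4.60 and 4.81 in PiZ p50KO (1.53 ± 0.26, adjusted p = 0.000339), with only PiZ p50KO 3 inside the PiZ range. Acot2 was at 2.99, 2.94, 2.51, 3.36 and 2.87 and fell by 0.68 (adjusted p = 0.0118), or by 0.42 at the same median (adjusted p = 0.149). The 2 neighbours thus differed in opposite directions here as well, but with unlike firmness. The rise of Acot1 was also called at the same median, with WT PBS 2 and without PiZ p50KO 1 and 2. The fall of Acot2 was called in none of these fits (adjusted p = 0.347 with WT PBS 2 and 0.0511 without PiZ p50KO 1 and 2). In peroxisomal oxidation 0 of 9 passed by limma on the deposited values, and 3 were higher at an unadjusted p under 0.05. By voom on recovered reads 6 rose, with no share of all genes taken. Acaa1b was at 9.89, 9.91, 8.23, 9.10 and 8.58 (0.80 ± 0.32, adjusted p = 0.0705); PiZ p50KO 1 and 2 were the highest 2 of the group. In omega oxidation 0 of 3 passed with either tool, 0 also at an unadjusted p under 0.05. Cyp4a10 ranged from 2.58 to 7.08 in PiZ p50KO, and its difference from PiZ was 0.53 with all 5 libraries and -0.48 without PiZ p50KO 1 and 2. Pdk4 differed by -0.42 ± 0.24 (adjusted p = 0.211) and Ppara by 0.39 ± 0.35 (adjusted p = 0.447).

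Against WT PBS, 1 of 41 members was lower in PiZ p50KO, Fabp1, and 0 were higher (all genes 1.14% and 10.5%). By limma 2 members were higher and 6 lower at an unadjusted p under 0.05. Voom on recovered reads called 0 higher and 6 lower, with no share of all genes taken. With the libraries at the same median 9 were lower (all genes 4.33% lower and 3.2% higher), and with WT PBS 2 no member was called (all genes 0.00743% lower and 0.0817% higher). Without PiZ p50KO 1 and 2, 7 fell: Fabp1, Acaa1b, Decr2, Eci2, Ehhadh, Cyp4a10 and Acot3. The share of all genes called in that fit was not taken, so these 7 cannot be set against it. The members took 1.14 ± 0.153% of reads in PiZ p50KO, against 0.903 ± 0.0589% in PiZ and 1.37 ± 0.0715% in WT PBS (SD, n = 5 each). Acot3 was at 3.04, 1.76, -1.16, 0.01 and 1.40 in PiZ p50KO and Pdk4 at 3.58, 3.55, 2.99, 3.01 and 3.09; their differences from WT PBS were -1.49 ± 0.67 and 0.72 ± 0.24 (adjusted p = 0.149 and 0.0537).

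The macrophage and matrix markers moved here too: 10 of 10 and 9 of 10 fell in PiZ p50KO against PiZ (9 and 8 at the same median, 6 and 5 with WT PBS 2), with sums of 305 to 531 and 222 to 467 CPM in PiZ p50KO, and 2 of 9 hepatocyte markers rose, or 6 at the same median. Their part in the rises of the members was not tested. Among the other PPAR-alpha targets 6 of 25 rose and 2 fell, and Vnn1 rose by 3.42 ± 0.33 (adjusted p = 4.74e-07) to 3.71 to 5.80 log2 CPM in PiZ p50KO, while Ucp2 fell by 1.32; with WT PBS 2, 1 rose and 1 fell. Of the partners and coregulators 0 of 18 passed against PiZ by limma (1 at an unadjusted p under 0.05, and 2 rose by voom), and 5 of 18 rose against WT PBS (2 at the same median, 0 with WT PBS 2). Those were led by the receptor genes Ppard (1.20 ± 0.31) and Pparg (0.98 ± 0.19).

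After 2 hours of TNFa 2 of the 41 members were called, both as lower: Ppara and Pdk4 (all genes 4.05% lower and 7.63% higher). The count of lower members was thus near the share of all genes. By limma 0 rose, 0 also at an unadjusted p under 0.05 and by voom, and in each of the uptake, mitochondrial, peroxisomal, omega and thioesterase groups 0 were called by either tool. At an unadjusted p under 0.05 limma gave 1 of these genes as lower, Fabp1. The member median was -0.05 and that of all genes -0.02, and the same 2 members fell at the same median (all genes 6.18% lower and 7.42% higher). Only Pdk4 fell with WT PBS 2 in the fit (all genes 1.88% lower and 2.18% higher). The WT PBS libraries are the same as in the comparison with PiZ.

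Levels in WT TNFa are given as the lowest, median and highest of 6 libraries. Ppara was at 4.28, 4.88 and 6.57 in WT TNFa, against 6.48, 6.91, 5.76, 6.23 and 5.79 in WT PBS, a log2 fold change of -1.18 ± 0.33 (adjusted p = 0.0225). The spread was wide: WT TNFa 4 was at 6.57, within the WT PBS range, and the other 5 lay below all these WT PBS values. WT PBS 2 was at 5.27, below WT TNFa 1 at 5.45. Nfkb1, a gene known to be induced by TNFa, was also low in that library (4.77 log2 CPM), while the remaining 5 of the group were at 6.57 to 6.95. Without WT TNFa 4 the difference was -1.48 ± 0.27 (adjusted p = 0.000362), with WT PBS 2 it was -1.02 and did not pass (adjusted p = 0.1004), and without any 1 of 5 other libraries the adjusted p was 0.0523 to 0.0685. Pdk4 was at 1.13, 1.61 and 1.79 in WT TNFa, against 3.40, 1.76, 2.76, 2.60 and 2.09 in WT PBS (-0.98 ± 0.23, adjusted p = 0.00618, and 0.0215 with WT PBS 2). Only the highest WT TNFa value of Pdk4 reached the lowest WT PBS value. Without WT PBS 2, Pdk4 thus fell after TNFa and rose in PiZ, each against the same WT PBS libraries; with it only the fall was called.

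**Figure D3:**
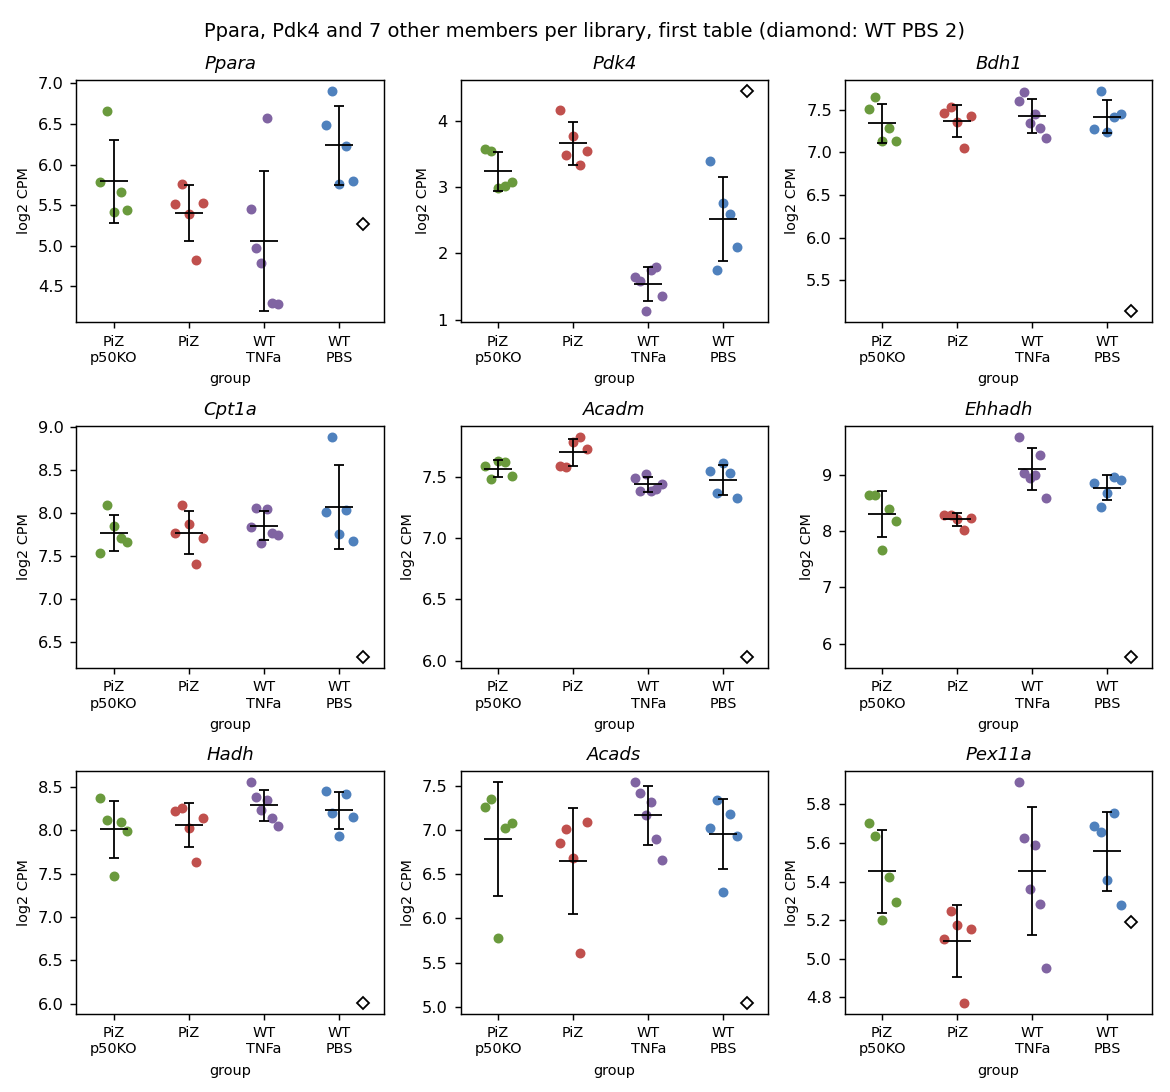
Log2 CPM of Ppara, Pdk4 and 7 other members in each library of the first table, by group; bars are the mean and SD without WT PBS 2 (open diamond). Without the diamond, the mean of Pdk4 is highest in PiZ and lowest in WT TNFa, and 1 WT TNFa library has Ppara at 6.57, apart from the other 5.

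The other 39 members did not pass the test. Fabp1 was at 11.03, 11.57 and 11.68 in WT TNFa (-0.39 ± 0.15, adjusted p = 0.110), Cpt1a differed by -0.22 ± 0.17 and Acaa1b by 0.33 ± 0.31. Cyp4a10 and Acot3 differed by -0.54 ± 0.69 and -1.13 ± 0.64, with standard errors too wide to tell either direction. A p that misses the threshold does not show equal levels: for the mitochondrial members the differences ran from -0.22 to 0.21. Of 18 partners and coregulators 1 fell and 1 rose, near the shares of all genes (4.05% and 7.63%). Ppargc1b, a coactivator of oxidative genes, fell by 2.67 ± 0.58 (adjusted p = 0.00352, and 0.0103 with WT PBS 2). Its level was low and the groups overlapped, at -2.45 to 2.08 log2 CPM in WT TNFa and 0.88 to 2.51 in WT PBS without WT PBS 2. The deacetylase gene Sirt1 rose by 0.54 ± 0.12 (adjusted p = 0.00271, and 0.726 with WT PBS 2). Of the 25 other targets 0 passed by limma, 3 were lower at an unadjusted p under 0.05, and voom called 1 lower. Neutrophil markers rose in 3 of 5 (2 with WT PBS 2), and their part in the 2 falls was not tested. Their sums were 7.7 to 112 CPM in WT TNFa and 1.6 to 20.0 CPM in WT PBS without WT PBS 2, which was at 39.0 CPM.

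Tunicamycin for 24 hours went with rises and falls in 4 of the 6 roles and with falls alone in uptake and activation and among the regulator, fuel switch and ketone genes. Of 41, 7 rose and 11 fell (all genes 45.3% and 13.5% of 13388), with 3 above and 4 below every WT DMSO library (all genes 28.5% and 4.76%). The median was -0.05 over the members and 0.38 over all genes; at the same median 3 rose, all in the peroxisomal and thioesterase roles, and 20 fell (all genes 24.1% and 29.2%), with medians of -0.50 and -0.07. Values are given below as the lowest, median and highest of 6 libraries. The members took 0.814 ± 0.193% of reads in WT tunicamycin and 1.34 ± 0.23% in WT DMSO (SD, n = 6 each).

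Fabp1 had the largest fall, at 7.90, 8.66 and 10.26 in WT tunicamycin and 11.08, 11.75 and 12.30 in WT DMSO (-2.86 ± 0.40, adjusted p = 7.27e-05). Acsl1 was at 7.94, 8.61 and 9.72 in WT tunicamycin and 9.68, 10.13 and 10.45 in WT DMSO (-1.42 ± 0.28, adjusted p = 0.000808). The groups did not overlap for Fabp1 and overlapped for Acsl1 through the highest tunicamycin library. Slc27a2 did not pass at -0.45 and fell at the same median, where all 4 uptake and activation genes did.

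In mitochondrial oxidation 2 of 17 rose and 2 fell, beside 45.3% higher and 13.5% lower among all genes. The count of falls was thus near the share of all genes. Hadh, the short-chain hydroxyacyl-CoA dehydrogenase, was at 5.65, 6.15 and 7.23 in WT tunicamycin and 7.36, 8.08 and 8.35 in WT DMSO, without overlap (-1.68 ± 0.26, adjusted p = 0.000155). Acaa2, the thiolase that closes the cycle, was at 7.84, 8.35 and 9.39 in WT tunicamycin and 8.58, 9.64 and 9.79 in WT DMSO (-0.93 ± 0.27, adjusted p = 0.00997). Both enzymes act late in the cycle on shorter chains; Hadha and Hadhb, subunits of the trifunctional protein for longer chains, differed by 0.08 and 0.30 and did not pass (-0.37 and -0.15 at the same median). Cpt1a was called higher at 8.38, 8.59 and 8.82 in WT tunicamycin and 7.51, 8.24 and 8.51 in WT DMSO (0.47 ± 0.16, adjusted p = 0.0249) and Acadm at 0.45, but at the same median their differences were 0.02 and 0.00081, and Cpt1a missed the threshold without either of 2 libraries (adjusted p = 0.0530 and 0.0532). Of the 17, 8 fell at the same median.

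In peroxisomal oxidation 2 of 9 rose and 3 fell. Acox2, the acyl-CoA oxidase of branched chains and bile acid precursors, was at 9.08, 9.34 and 9.51 in WT tunicamycin and 7.48, 7.87 and 8.16 in WT DMSO (1.44 ± 0.14, adjusted p = 5.33e-06). Acaa1b was at 6.31, 6.71 and 8.52 in WT tunicamycin and 8.53, 9.99 and 10.65 in WT DMSO (-2.80 ± 0.40, adjusted p = 9.64e-05). Neither gene overlapped between groups, Acox2 being higher and Acaa1b lower in every tunicamycin library. Acaa1a fell by 0.85 and Decr2 by 0.76, and Pex11a rose by 0.75, a rise that was 0.30 at the same median (adjusted p = 0.145). Acaa1a missed the threshold without either of 2 libraries (adjusted p = 0.0504 and 0.0508).

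The 3 omega hydroxylases parted. Cyp4a14 was at 3.53, 4.14 and 6.57 in WT tunicamycin and -1.55, 2.50 and 3.97 in WT DMSO (2.41 ± 0.80, adjusted p = 0.0194, and 0.0558 at the same median). Cyp4a12a, the form that male mice express, was at 5.39, 6.97 and 8.20 in WT tunicamycin and 8.87, 8.91 and 9.55 in WT DMSO (-2.12 ± 0.36, adjusted p = 0.000315). Cyp4a12a was lower in every tunicamycin library, whereas Cyp4a14 overlapped, since 2 WT DMSO libraries were at 3.69 and 3.97 and 1 at -1.55. Cyp4a10 differed by 1.15 ± 0.59 and did not pass (adjusted p = 0.107). Cyp4a12a shares 48.9% of its 50-base stretches with Cyp4a12b, so its reads may include that gene's.

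The thioesterases parted too, and Acot2 had the largest rise of all members. Acot2 was at 5.31, 6.02 and 6.75 in WT tunicamycin and 1.93, 2.99 and 3.46 in WT DMSO, an 8.65-fold difference (3.11 ± 0.27, adjusted p = 2.11e-06). Its neighbour Acot1 was at 1.77, 2.84 and 3.13 in WT tunicamycin and 2.72, 4.20 and 5.08 in WT DMSO (-1.36 ± 0.42, adjusted p = 0.0133). Acot2 lay far above the WT DMSO values. Acot1 was lower by its mean but the groups overlapped, the tunicamycin median of 2.84 lying above the lowest WT DMSO value of 2.72. The directions were those of PiZ against WT PBS, where neither gene overlapped once WT PBS 2 was left out. Acot12, a liver acetyl-CoA thioesterase, was at 7.30, 7.82 and 8.41 in WT tunicamycin and 6.26, 6.61 and 6.81 in WT DMSO, without overlap (1.22 ± 0.17, adjusted p = 7.08e-05). Acot2 and Acot12 also rose at the same median (2.66 and 0.77).

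**Figure D4:**
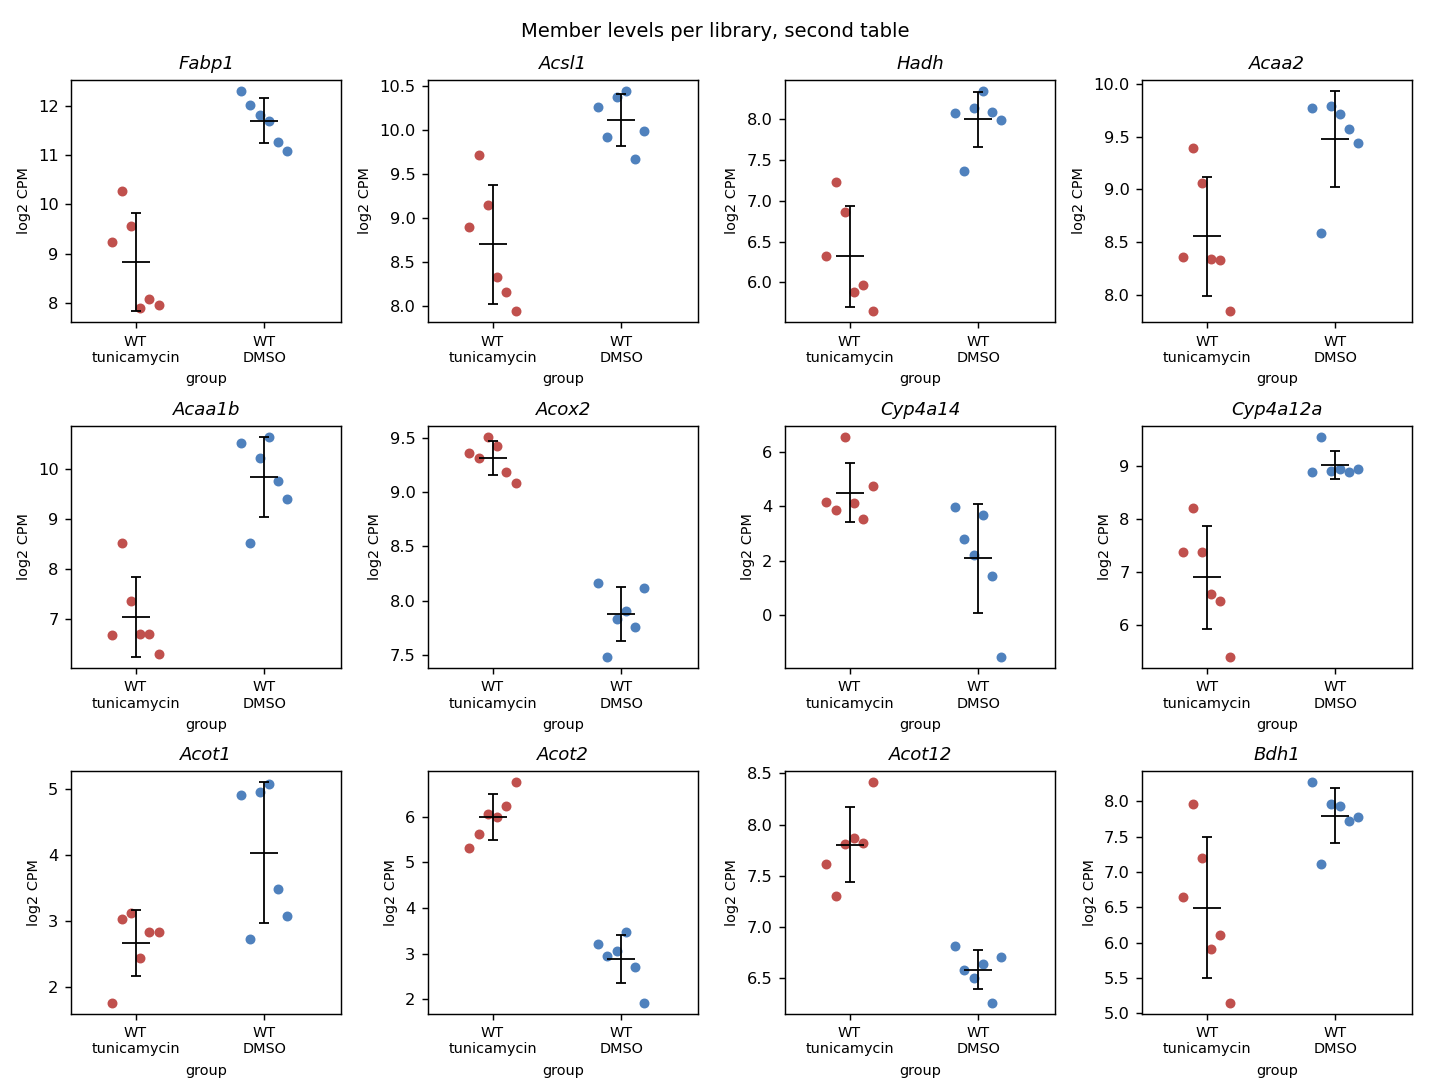
Log2 CPM of 12 members in each library of the second table, WT tunicamycin left of WT DMSO; bars are the mean and SD of 6 libraries. In every WT tunicamycin library Acox2, Acot2 and Acot12 lie above, and Fabp1, Hadh, Acaa1b and Cyp4a12a below, all WT DMSO libraries.

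Ppara was at 5.29, 5.60 and 6.85 in WT tunicamycin and 5.81, 6.91 and 7.53 in WT DMSO (-1.02 ± 0.30, adjusted p = 0.0103), and Bdh1 at 5.15, 6.37 and 7.96 in WT tunicamycin and 7.11, 7.86 and 8.27 in WT DMSO (-1.30 ± 0.38, adjusted p = 0.0101). Pdk4 differed by 0.51 ± 0.46 and did not pass. Both falls were larger at the same median, at -1.47 for Ppara and -1.75 for Bdh1. Of 24 other targets 8 rose and 6 fell: Angptl4, an inhibitor of lipoprotein lipase, rose by 2.05, the lipid droplet gene Cidec by 2.16, and the desaturase gene Fads2 fell by 2.51. Of 16 peroxisome genes 4 rose and 2 fell. Among them Pex2, a ubiquitin ligase of the peroxisomal membrane, rose by 1.76, and the catalase gene Cat fell by 1.41. Beside all genes (45.3% higher and 13.5% lower), rises were fewer in both lists, and the falls of peroxisome genes were near the share. Hepatocyte markers fell in 3 of 9 (7 at the same median), with sums of 32972 to 83145 CPM in WT tunicamycin and 97531 to 132011 CPM in WT DMSO, and macrophage markers fell in 5 of 9 (8 at the same median). Whether the falls of the members go with fewer hepatocytes or with less RNA per cell was not tested.

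**Figure D5:**
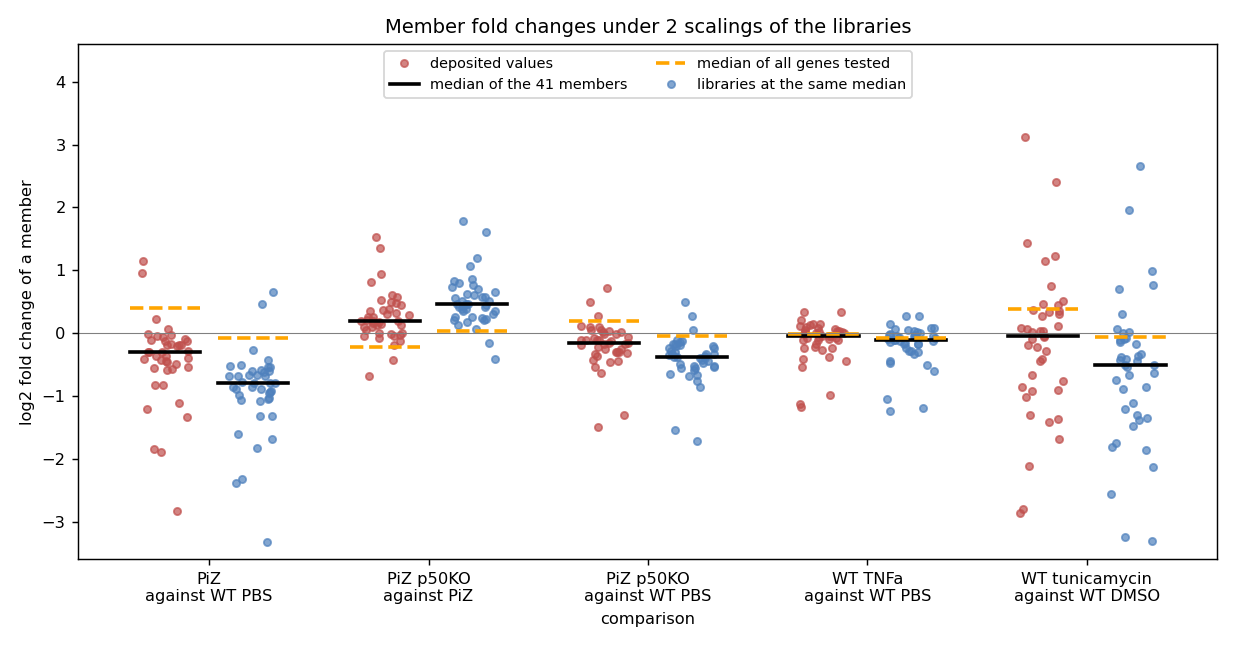
Log2 fold changes of the 41 members in each comparison with the deposited values (red) and with the libraries at the same median (blue); black lines are member medians and dashed orange lines medians of all genes tested. In PiZ against WT PBS the member median is -0.31 and -0.80, and that of all genes 0.40 and -0.09.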

How the data were processed

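Polyadenylated RNA of mouse liver was sequenced in 34 libraries of 6 groups. The submitters' processing notes name bcl2fastq, DRAGEN, STAR, Subread, featureCounts and edgeR and the build GRCm38, without roles. The authors deposited 2 tables of log2 CPM per gene, whose values are counts scaled to the library total on the log2 scale, with an offset that puts a count of 0 at a fixed floor; how reads with several matches were counted is not given in the sources used here. Whole reads were recovered from all values checked (those under 1000 reads, tolerance 0.1), which gives the depths stated above. Each table listed 287 genes more than once with identical values, and these were used once.

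Groups were compared with limma 3.58.1 (R 4.3.3, empirical Bayes with trend, two-sided) on the deposited log2 CPM, in 1 fit per table, without WT PBS 2, for genes that exceeded 1 CPM in 5 or more libraries (first table) or 6 or more (second table). Benjamini-Hochberg adjustment ran over all genes tested, with a threshold of 0.05. "At the same median" means that each library was shifted so that all share the median of the genes tested. Alternatives were quantile normalization, voom on the recovered reads with median-of-ratios scaling, a pseudocount of 1 CPM, no filter, a filter at 4 CPM, only the groups compared, a replicate block, and leaving libraries out. The fit was tested on simulated data. Nothing says whether libraries of a group came from separate litters or days, so p-values measure the spread between these libraries. Columns of 3 of the WT tunicamycin libraries carry names that the labels assign in conflicting ways, and they were used by group only.

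Members named are, per comparison and role, up to 3 called with the largest change, otherwise the 1 with the largest difference, and always Ppara; genes of other lists are up to 3 called per list. The members, lists and this rule were chosen with earlier results of these data known. Positions and exon lengths are from GENCODE (GRCm38), and stretches of 50 bases shared between genes were counted in its transcripts. Some members of the pathway are not reported here.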

Additional observations from a re-analysis of the deposited data

Results flagged for a closer look

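In 13 of 82 sets of values (a named member in 1 group of at least 4 libraries) a single library lay far from the others; chance marks about 1 in 20 such sets. PiZ 4 was that library for 6 members: Slc27a2 was at 9.25 log2 CPM, against 9.77 to 9.84 in the other PiZ libraries, Eci1 at 5.61 against 6.16 to 6.29, Cpt2 at 6.11 against 6.53 to 6.62, Acaa1b at 7.52 against 8.45 to 8.61, and Ehhadh at 8.01 against 8.22 to 8.29. For Cyp4a10 the same library was the highest, at 6.13 against 3.98 to 4.51. WT DMSO 2 was that library for 4 members, at 7.36 for Hadh (others 7.99 to 8.35), 8.58 for Acaa2 (9.44 to 9.79), 6.47 for Acaa1a (7.78 to 8.16) and, as the highest, 9.55 for Cyp4a12a (8.87 to 8.93). The remaining 3 were Eci2 at 6.86 in WT PBS 3 (others 6.21 to 6.33), Fabp1 at 11.03 in WT TNFa 6 (11.52 to 11.68) and Ppara at 6.85 in 1 WT tunicamycin library (5.29 to 5.79).

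WT PBS 2, which the fits leave out, was above every other WT PBS library for 4 members. Cyp4a14 was at 8.83 log2 CPM (others 1.56 to 3.68), Acot1 at 5.59 (4.75 to 5.25), Acot2 at 4.90 (2.12 to 2.97) and Pdk4 at 4.46 (1.76 to 3.40). Its adipocyte markers summed to 110 CPM, against at most 0.8 CPM in the other WT PBS libraries, and its hepatocyte markers to 8669 CPM, against 93181 to 121907; whether these bear on the 4 members was not tested.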

How the results depend on the processing

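Counts of called members (higher and lower) are given for PiZ, WT TNFa, PiZ p50KO against PiZ, PiZ p50KO against WT PBS, and WT tunicamycin in this order; with the reported fit they were 3 and 17, 0 and 2, 6 and 1, 0 and 1, and 7 and 11. With WT PBS 2 they were 0 and 3, 0 and 1, 1 and 0, and 0 and 0. At the same median they were 1 and 37, 0 and 2, 19 and 0, 0 and 9, and 3 and 20, of which 18 of the 20 PiZ calls, 6 of the 7 against PiZ and 14 of the 18 tunicamycin calls were shared with the reported fit. Quantile normalization gave 1 and 22, 0 and 2, 12 and 0, 0 and 3, and 3 and 19, and voom on recovered reads 2 and 37, 0 and 2, 19 and 0, 0 and 6, and 4 and 19. Shares of all genes were taken only for the reported fit, the fit with WT PBS 2 and that at the same median. Fitting only the groups compared gave 1 lower after TNFa and 0 lower in PiZ p50KO against WT PBS, where no filter gave 0 and a filter at 4 CPM 2. Without PiZ p50KO 1 and 2 there were 3 and 0 against PiZ and 0 and 7 against WT PBS, with no share of all genes taken. Leaving out 1 library at a time gave 2 to 3 and 15 to 18 in PiZ, 0 and 1 to 2 after TNFa, 4 to 10 and 1 against PiZ, 0 to 2 and 1 to 4 in PiZ p50KO against WT PBS, and 6 to 8 and 10 to 14 after tunicamycin. Of single libraries, omitting PiZ p50KO 3 gave 10 higher against PiZ, omitting PiZ p50KO 1 gave 4 lower against WT PBS, and omitting WT PBS 1 or 3 or WT TNFa 3, 5 or 6 left 1 lower after TNFa. A replicate block gave 3 and 18, 0 and 2, 8 and 1, 0 and 1, and 5 and 11; same-numbered libraries correlated between -0.23 and 0.56 in their deviations, with mixed signs, so the numbers were not taken to pair them. With WT PBS 2 the difference turned for Fabp1 (0.45) and Cpt1a (0.0714) after TNFa and for Fabp1 (0.20) and Acaa1b (0.0661) in PiZ p50KO against WT PBS, and without PiZ p50KO 1 and 2 for Cyp4a10 against PiZ (-0.48). Over all 41 members, called or not, the sign changed with WT PBS 2 for 16 in PiZ, 16 after TNFa and 23 in PiZ p50KO against WT PBS, and at the same median for 2, 6, 8, 8 and 11 members in the 5 comparisons, in the order given first; called ones among these were Acsl5, Etfa, Etfdh (with WT PBS 2) and Acadm (same median) in PiZ, beside Fabp1 above. The cause of these changes was not tested, and a pseudocount of 1 CPM changed no count by over 1.5 times.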

Other observations

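Cyp4a10, Cyp4a14 and Acot3 had the largest spread among the 41 members in 5 of the 6 groups, vehicle groups included, when libraries of 1 group were compared with each other. In WT PBS their SDs were 1.23, 0.96 and 1.29 log2 CPM (n = 5), against a median SD of 0.21 over the members, and in WT DMSO they were 1.46, 2.01 and 1.22 (n = 6), against 0.38. In WT DMSO 6 all 3 were at their lowest, with Cyp4a10 at 2.89, Cyp4a14 at -1.55 and Acot3 at 0.01, while in WT DMSO 1 they were at 6.38, 3.97 and 3.32. In WT tunicamycin Cyp4a14 again had the largest SD, 1.09, followed by Bdh1 at 1.00 and Fabp1 at 0.99, against a median of 0.38.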
